A study of Homo sapiens with 16 samples.

Results

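Ribosome biogenesis factors, the proteins that make and assemble ribosomes without being part of the finished particle, were followed in the HCT116 line, which was established from a human colorectal carcinoma, with and without low oxygen. The set held 40 genes taken by symbol from the deposited count table of 23669 genes. It was chosen with earlier results of these data known, so shares of all genes set beside its counts are description only. All 40 passed the filter on low counts, which kept 15520 genes for testing. The lowest count of any of them in any library was 360. Poly(A) RNA had been sequenced from 4 stable lines: HCT116 with a non-targeting shRNA (shNT), with an shRNA against TIP60, the acetyltransferase encoded by KAT5 (shTIP60), with one that targets CDK8, the cyclin-dependent kinase found in Mediator (shCDK8), and with HIF1A genetically deleted (HIF1A-/-, called HIF1A-null here). Each line was kept at 21% oxygen (normoxia) or at 1% oxygen for 24 h (hypoxia), with 2 libraries of each combination that the labels describe as independent biological replicates. Each gene was targeted in 1 line, so a line and its target cannot be told apart, and the labels give no shRNA for the HIF1A-null line, which differs from shNT in that respect too.

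Ribosomes are built mostly in the nucleolus. RNA polymerase I transcribes the ribosomal RNA precursor, small nucleolar ribonucleoproteins (snoRNPs) modify and fold it, and separate sets of factors cut it and load ribosomal proteins onto the nascent small and large subunits. The box C/D snoRNPs guide ribose methylation and the box H/ACA snoRNPs guide pseudouridylation. Many of these genes are known targets of MYC, which binds with MAX at the E-box CACGTG, and colorectal cancer cells are known for high MYC and large nucleoli. HIF1, the oxygen-regulated factor whose alpha subunit HIF1A encodes, binds hypoxia response elements with the core ACGTG or GCGTG.

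Promoter sequence was available in RefSeq (GRCh38.p14) for 34 of the 40 genes, in 41 windows. RRP12, RRP1B, NOLC1, BOP1, NOP58 and RRS1 had no entry. In the 250 bases before the annotated start, searched on both strands, the E-box CACGTG was in 5 of 34 genes (14.7%), that is in 12.2% of their windows, and in 6.34% of all 35116 windows of the table. ACGTG was in 41.2% of the genes (34.1% of their windows) and in 18.5% of all windows. GCGTG was in 55.9% of the genes (48.8% of their windows) and in 32.2% of all windows. Each E-box also holds ACGTG, so these counts overlap. The windows were not matched for their share of G and C, and the part of base content in these differences was not tested. The 6 E-box sites are printed as 30 bases each, 5′ to 3′ on the gene's strand, with the E-box in capitals, because DDX21 and UTP20 are among the genes whose response differed between lines and NOP10 is one that was not called in any line.
DDX21: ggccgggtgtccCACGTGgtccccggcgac
UTP20: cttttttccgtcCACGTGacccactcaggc
EBNA1BP2: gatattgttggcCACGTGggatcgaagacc
UTP14A: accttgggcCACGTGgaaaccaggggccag
NOP10, far site: gtagggacactcCACGTGttttagcctgca
NOP10, near site: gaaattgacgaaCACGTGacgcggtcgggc
The first base of the E-box lay 31 bases before the start in DDX21 (chr10:68956604-68956633, plus strand), 10 bases in UTP20 (chr12:101280083-101280112, plus strand), 237 bases in EBNA1BP2 (chr1:43172790-43172819, minus strand), 241 bases in UTP14A (chrX:129905914-129905943, plus strand), and 170 and 11 bases in NOP10 (chr15:34343289-34343318 and chr15:34343130-34343159, minus strand). DDX21 and EBNA1BP2 each had another window, before a different annotated start, that held no E-box.

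The whole window of 250 bases is printed for 5 genes that contrast in what follows, with any ACGTG or GCGTG, and so any E-box, on either strand in capitals. Their windows shared no run of 25 bases with an annotated transcript. UTP20 (chr12:101279855-101280104, plus strand), LTV1 (chr6:143843088-143843337, plus strand), UTP6 (chr17:31901709-31901958, minus strand) and RRP9 (chr3:51941905-51942154, minus strand) responded to hypoxia differently in HIF1A-null than in shNT, by a test given later. LTV1 was called lower in hypoxia in all 4 lines, and the others in shNT, shTIP60 and shCDK8 and not in HIF1A-null. FBL (chr19:39846380-39846629, minus strand) was called lower with hypoxia in no line.
UTP20: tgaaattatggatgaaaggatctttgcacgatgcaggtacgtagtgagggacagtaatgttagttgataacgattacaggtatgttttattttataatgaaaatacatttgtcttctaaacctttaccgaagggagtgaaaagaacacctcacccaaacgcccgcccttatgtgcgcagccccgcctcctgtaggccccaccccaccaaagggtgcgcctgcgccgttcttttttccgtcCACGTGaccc
LTV1: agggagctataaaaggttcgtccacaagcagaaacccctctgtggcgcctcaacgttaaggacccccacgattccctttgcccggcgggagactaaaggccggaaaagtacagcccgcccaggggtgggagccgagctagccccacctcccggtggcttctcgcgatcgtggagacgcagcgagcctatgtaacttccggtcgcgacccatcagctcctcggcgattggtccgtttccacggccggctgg
UTP6: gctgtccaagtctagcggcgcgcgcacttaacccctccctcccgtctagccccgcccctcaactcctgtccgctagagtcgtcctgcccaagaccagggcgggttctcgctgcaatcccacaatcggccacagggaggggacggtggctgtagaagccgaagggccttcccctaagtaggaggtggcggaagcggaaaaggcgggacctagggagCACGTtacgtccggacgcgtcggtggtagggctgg
RRP9: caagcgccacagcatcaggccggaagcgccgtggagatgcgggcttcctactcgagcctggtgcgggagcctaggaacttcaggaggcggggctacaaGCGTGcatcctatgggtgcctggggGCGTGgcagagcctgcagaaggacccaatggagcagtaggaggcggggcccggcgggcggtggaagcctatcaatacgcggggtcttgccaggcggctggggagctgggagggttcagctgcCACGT
FBL: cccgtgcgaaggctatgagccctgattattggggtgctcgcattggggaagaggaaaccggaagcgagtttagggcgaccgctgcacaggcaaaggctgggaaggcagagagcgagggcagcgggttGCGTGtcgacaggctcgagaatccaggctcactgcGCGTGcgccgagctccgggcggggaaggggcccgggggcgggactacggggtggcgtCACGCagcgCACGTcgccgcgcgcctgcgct
In the UTP20 window the E-box is next to the start. None of the searched letters is in the LTV1 window. The FBL window holds 3 GCGTG matches and 1 ACGTG match, the RRP9 window 2 and 1, and the UTP6 window 1 ACGTG match. A match is a string of letters in a window, and binding was not measured.

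Total counts ran from 26620086 to 39401494 per library, and a floor of 3 counts was 0.0716 to 0.112 CPM (counts relative to library size, scaled by trimmed mean of M-values, TMM), far under every level given here. Values are CPM for the 2 libraries of a group, called A and B after the 2 series of library numbers in the column names, and changes are log2 fold changes ± SE from edgeR's quasi-likelihood test with Benjamini-Hochberg adjustment over all 15520 genes (called at an adjusted p under 0.05). KAT5 was at 20.2 and 19.1 CPM in shTIP60 and 84.8 and 86.7 in shNT in normoxia, and CDK8 at 5.77 and 6.80 in shCDK8 and 27.3 and 24.8 in shNT. HIF1A was at 13 and 14.1 in HIF1A-null and 107 and 108 in shNT in normoxia, but at 40.1 and 57.6 in HIF1A-null and 61.2 and 70.5 in shNT in hypoxia (-0.43 ± 0.15, adjusted p = 0.0283), a difference no longer called without HIF1A-null hypoxia library A (adjusted p = 0.317) or shNT hypoxia library B (adjusted p = 0.181). Which part of HIF1A is deleted was not given in the sources used here, so its count over the whole gene does not check the label in hypoxia. Of 12 epithelial markers, 10 or 11 had more than 3 counts in each library, while CDX1 and VIL1 were at or near 0. Their summed level was 4394 to 7604 CPM in normoxia and 8149 to 12088 CPM in hypoxia. Of 12 markers of immune, endothelial and stromal cells, 3 to 5 were detected (PTPRC, CD3E, COL1A2, DCN and LUM had medians of 0), with sums of 39.6 to 66.7 CPM in normoxia and 87.1 to 197 CPM in hypoxia, most of it CD68 and COL1A1. The part of these differences in the results below was not tested.

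The normoxia library B of HIF1A-null stood apart for these genes. Of the 40 genes, 38 were below their shNT normoxia mean in it, with a median log2 ratio of -0.36, whereas library A of the same group had a median of 0.05. In that group 37 of 40 genes were higher in A than in B, by a median of 0.42 on the log2 scale, and the next largest gap between the libraries of a group was 0.18, in shNT normoxia. The median gap over all tested genes was 0 in HIF1A-null normoxia. It was near 0 in every group, as TMM scaling leads to, so it does not show how many other genes differed as much. The HIF1A-null hypoxia counts and the called differences of its responses are therefore given with and without this library. In 7 of the 8 groups the median gene was higher in A than in B, the exception being shTIP60 hypoxia at -0.08. Summed over the 40 genes, the level was 5522 to 8055 CPM in normoxia and 4672 to 5813 CPM in hypoxia. The ranges overlapped only through that library B, at 5522 CPM, which was below both shCDK8 hypoxia libraries and HIF1A-null hypoxia library A.

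**Figure D1:**
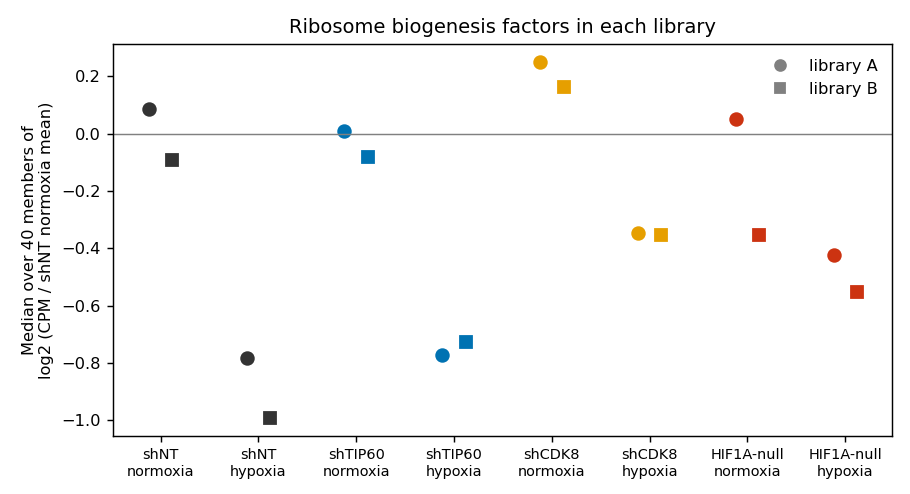
Each point is 1 library, and the vertical axis is the median over the 40 genes of the log2 ratio of CPM to the shNT normoxia mean, with libraries grouped by line and oxygen on the horizontal axis. The shNT and shTIP60 hypoxia libraries lie between -0.99 and -0.73, the shCDK8 and HIF1A-null hypoxia libraries between -0.55 and -0.35, and HIF1A-null normoxia library B at -0.36.

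The first comparison asked what 24 h at 1% oxygen did to these transcripts in control cells. In shNT, 30 of the 40 genes fell and 1, TAF1D, rose. Over all genes tested, 20.0% were called lower and 20.7% higher. The median log2 fold change of the 40 genes was -0.84, against -0.00067 over all tested genes, and 37 of 40 had a value below 0. In 35 of the 40 the 2 hypoxia libraries did not overlap the 2 normoxia libraries, a share that was not counted over all genes. Falls were called in each of the roles described next. Since CPM are shares of the mRNA sequenced, a change in total RNA per cell cannot be seen in them, and fewer cells of a kind and less RNA per cell cannot be told apart. Scaled by library totals alone, the median gene of the table moved to -0.20 in this comparison, 34 of the 40 fell, the median of the 40 was -1.04, and TAF1D was no longer called. With that scaling 29.7% of all genes were called lower and 13.6% higher. Against a null of a 1.5-fold change, 15 of the 40 were called lower and 0 higher, with 5.44% of all genes called lower and 7.20% higher.

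Of the 5 genes of the RNA polymerase I machinery, 4 fell in shNT. UBTF, the upstream binding factor that opens ribosomal gene chromatin and recruits the polymerase, was at 243 and 202 CPM in normoxia and 117 and 88.8 CPM in hypoxia (-1.11 ± 0.20, adjusted p = 0.000429). POLR1B, the subunit next to the catalytic POLR1A, was at 74.5 and 69.6 CPM in normoxia and 41.9 and 48 CPM in hypoxia (-0.68 ± 0.14, adjusted p = 0.00134). All hypoxia libraries were under all normoxia libraries for both. POLR1A (-0.84 ± 0.20) and POLR1C, a subunit shared with RNA polymerase III (-0.32 ± 0.12), also fell. TAF1D, a subunit of the selectivity factor SL1 that brings the polymerase to the promoter, moved the other way, at 56.6 and 62.7 CPM in normoxia and 79.5 and 109 CPM in hypoxia (0.66 ± 0.22, adjusted p = 0.0234). Its 2 hypoxia libraries were above both normoxia libraries but far apart from each other, and the rise was not called without shNT hypoxia library B (0.41, adjusted p = 0.234), normoxia library A (0.58, adjusted p = 0.140) or normoxia library B (0.73, adjusted p = 0.0596). TAF1D hosts 8 annotated small nucleolar RNAs within its bounds, more than any other member, and how reads from these were counted was not given in the sources used here.

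Of the 3 box C/D proteins, NOP58 and NOP56, the paired scaffold proteins of the particle, fell, and FBL, the methyltransferase, did not. NOP58 was at 144 and 132 CPM in normoxia and 53 and 63.5 CPM in hypoxia (-1.25 ± 0.14, adjusted p = 5.27e-06). NOP56 was at 498 and 392 CPM in normoxia and 242 and 186 CPM in hypoxia (-1.06 ± 0.22, adjusted p = 0.00146). FBL was at 526 and 463 CPM in normoxia and 577 and 622 CPM in hypoxia (0.28 ± 0.14, adjusted p = 0.118). Of the 4 box H/ACA proteins, GAR1, DKC1 (dyskerin, the pseudouridine synthase) and NHP2 fell. GAR1 was at 36.3 and 37.5 CPM in normoxia and 19.5 and 19.8 CPM in hypoxia (-0.91 ± 0.13, adjusted p = 5.71e-05). DKC1 was at 165 and 155 CPM in normoxia and 93 and 88.3 CPM in hypoxia (-0.82 ± 0.14, adjusted p = 0.00027). The libraries of each oxygen level were close to each other and apart from those of the other level. NHP2 was at -0.53 ± 0.19, adjusted p = 0.0403, and 28% of its exonic bases overlap the oppositely oriented RMND5B. NOP10 was at 82 and 79.5 CPM in normoxia and 68.4 and 87.1 CPM in hypoxia, with overlapping libraries (-0.05 ± 0.15, adjusted p = 0.805).

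Of the 5 abundant nucleolar proteins, 3 fell. DDX21, an RNA helicase of the nucleolus, was at 274 and 242 CPM in normoxia and 138 and 156 CPM in hypoxia (-0.81 ± 0.13, adjusted p = 0.000114). NOLC1 (Nopp140), a chaperone of snoRNPs, was at 507 and 466 CPM in normoxia and 264 and 239 CPM in hypoxia (-0.95 ± 0.16, adjusted p = 0.000217). NCL (nucleolin) was at 1237 and 1025 CPM in normoxia and 646 and 541 CPM in hypoxia (-0.93 ± 0.17, adjusted p = 0.000424). In each of these the hypoxia libraries were under the normoxia libraries, with no overlap.
NPM3 (-0.30 ± 0.18, adjusted p = 0.20) and NPM1, the chaperone nucleophosmin (0.24 ± 0.23, adjusted p = 0.446), were not called. NPM1 ranged from 551 to 951 CPM between the 2 hypoxia libraries, and the annotation names 49 pseudogenes of NPM1, with which reads can be shared.

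Of the 12 small subunit factors, 9 fell. LTV1, which leaves the small subunit precursor late in its maturation in the cytoplasm, was at 60.7 and 57.3 CPM in normoxia and 16.4 and 18 CPM in hypoxia (-1.78 ± 0.14, adjusted p = 1.10e-07). UTP14A, which activates the helicase that releases a small nucleolar RNA from the precursor, was at 40.5 and 40.8 CPM in normoxia and 13.5 and 16 CPM in hypoxia (-1.46 ± 0.14, adjusted p = 1.29e-06). In both genes the hypoxia libraries were far under the normoxia libraries. PNO1, a late factor at the cleavage site of the small subunit RNA, had a value of -1.43 ± 0.15, RRP9, a protein of the U3 particle that guides the early cuts, -1.06 ± 0.19, and UTP20, a large scaffold, -1.01 ± 0.14. The processome proteins UTP3 (-0.98 ± 0.16), UTP6 (-0.80 ± 0.12) and WDR43 (-0.79 ± 0.12) and BYSL, a factor of the small subunit precursor, (-0.88 ± 0.18) also fell. RRP12 (-0.41 ± 0.19, adjusted p = 0.0949), NOP14 (-0.24 ± 0.20, adjusted p = 0.347) and TSR1 (-0.12 ± 0.13, adjusted p = 0.50) were not called. NOP14 and TSR1 share 20.7% and 26.9% of their exonic bases with genes on the opposite strand, and the strand setting of the counting is not known.

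Of the 11 large subunit factors, 9 fell. NIP7 was at 109 and 96.7 CPM in normoxia and 30.9 and 30.6 CPM in hypoxia (-1.74 ± 0.13, adjusted p = 6.98e-08), with a gap between oxygen levels far wider than that between libraries of a level. RRS1, an assembly factor of the large subunit, was at 99.4 and 75.1 CPM in normoxia and 18.4 and 12.6 CPM in hypoxia (-2.49 ± 0.36, adjusted p = 5.20e-05). RRS1 had the lowest fold change of the 40 genes and also the widest SE. The PeBoW proteins, which work as a trio in large subunit RNA processing, were not all called: BOP1 (-0.98 ± 0.25, adjusted p = 0.00538) and WDR12 (-0.53 ± 0.13, adjusted p = 0.00325) fell, and PES1 was not called (-0.28 ± 0.21, adjusted p = 0.296). NOP16 (-1.27 ± 0.25), EBNA1BP2 (-1.18 ± 0.22), RRP1B (-1.02 ± 0.18), the RNA methyltransferase NOP2 (-0.85 ± 0.16) and RRP1 (-0.81 ± 0.28) fell. NOP2 shares 54.4% of its exonic bases with another annotated gene on its own strand. GNL3 (nucleostemin) was not called (-0.29 ± 0.12, adjusted p = 0.0597).

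**Figure D2:**
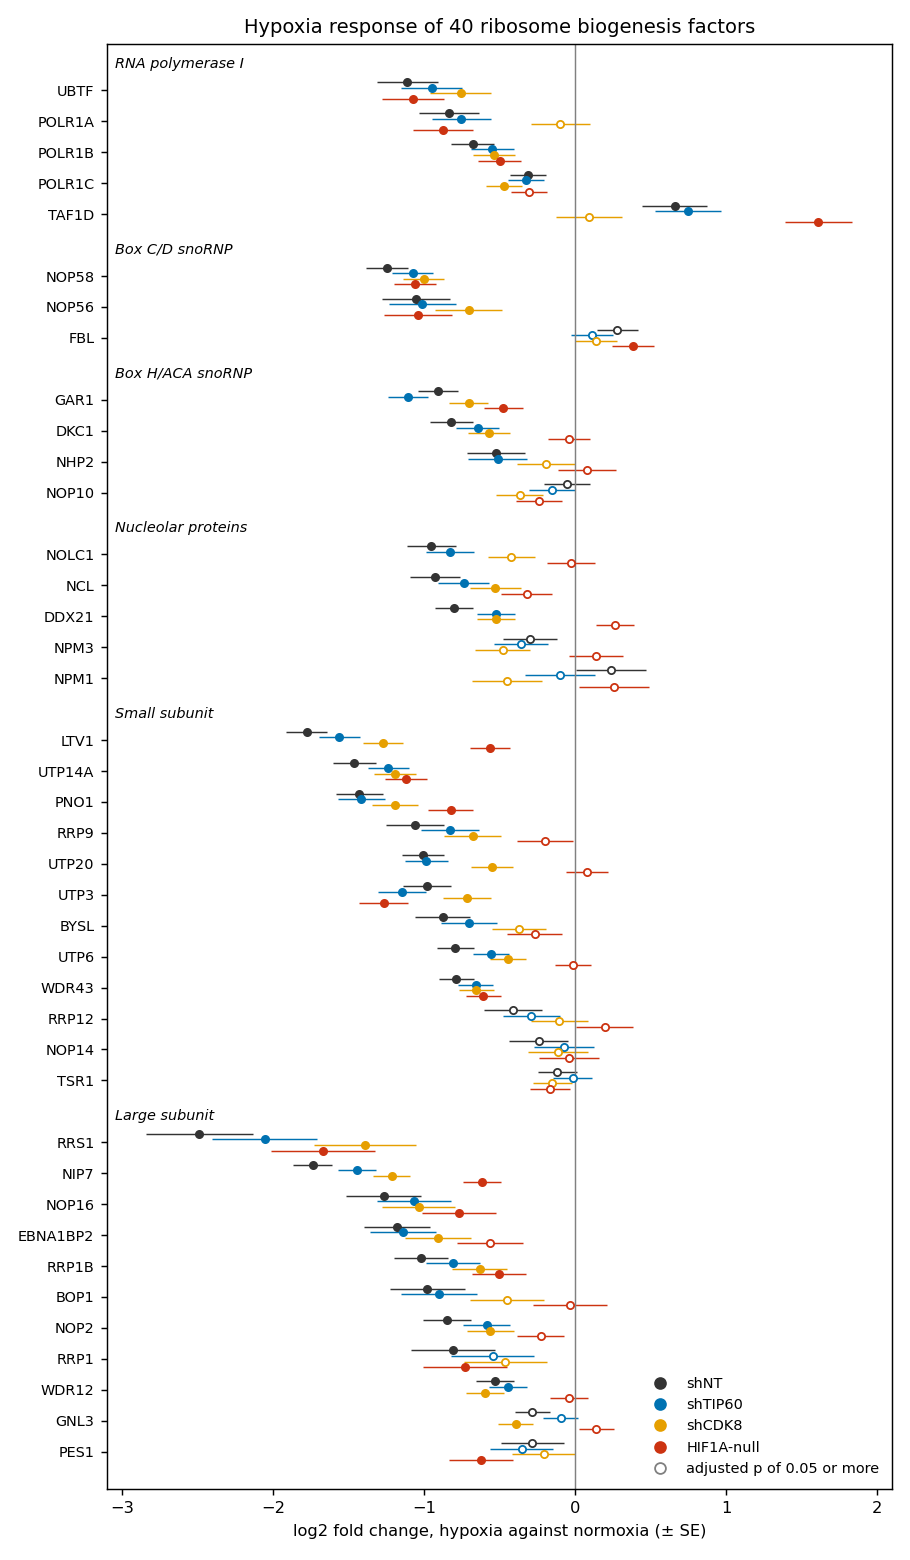
The horizontal axis is the log2 fold change of hypoxia against normoxia, each point is 1 gene in 1 line with its SE as a bar, and genes are grouped by role on the vertical axis. Filled points had an adjusted p under 0.05. LTV1 in shNT is at -1.78 and in HIF1A-null at -0.57, while UTP14A lies between -1.46 and -1.12 in the 4 lines.

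The same comparison was then made in each other line. In shTIP60, 29 genes fell and TAF1D rose, against 19.8% of all genes called lower and 19.4% called higher. The median was -0.68. All 29 were also among the 30 called lower in shNT, the exception being RRP1 (-0.55 ± 0.28, adjusted p = 0.129). The values were NIP7 -1.45 ± 0.13, LTV1 -1.56 ± 0.13, PNO1 -1.42 ± 0.15, RRS1 -2.06 ± 0.35, GAR1 -1.11 ± 0.13, NOP58 -1.08 ± 0.14, NOP56 -1.01 ± 0.22, UBTF -0.95 ± 0.20, NOLC1 -0.83 ± 0.16, NCL -0.74 ± 0.17 and DKC1 -0.65 ± 0.14. The highest adjusted p among these was 0.00257, for NCL. POLR1B (-0.55 ± 0.14, adjusted p = 0.00629) was not called without hypoxia library A (adjusted p = 0.0584). TAF1D (0.74 ± 0.22, adjusted p = 0.0128) was at 52.8 and 52.9 CPM in normoxia and 85.8 and 91.2 CPM in hypoxia, and its rise was not called without hypoxia library B (0.70, adjusted p = 0.0716), normoxia library A (0.74, adjusted p = 0.0738) or normoxia library B (0.74, adjusted p = 0.0658), nor under library totals (0.53, adjusted p = 0.0722).

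In shCDK8, 25 genes fell and none rose, against 11.0% of all genes called lower and 13.8% called higher. The median was -0.53. Of the 25, 24 were among the 30 of shNT, and the other was GNL3 (-0.39 ± 0.12, adjusted p = 0.0205). LTV1 (-1.27 ± 0.13), NIP7 (-1.22 ± 0.12), UTP14A (-1.19 ± 0.14), NOP58 (-1.004 ± 0.14) and GAR1 (-0.71 ± 0.13) had adjusted p of 0.00103 or less. POLR1A, the catalytic subunit of RNA polymerase I, was at 132 and 87.7 CPM in normoxia and 111 and 94.1 CPM in hypoxia (-0.10 ± 0.19, adjusted p = 0.756), with overlapping libraries. TAF1D was at 0.09 ± 0.22, adjusted p = 0.806. The count rested on both hypoxia libraries of this line. Far fewer genes were called without library B and fewer without library A, while the median was -0.53 without library B and -0.57 without library A. The share of all genes called was not counted in these 2 fits. Among the named genes, NOP56 (-0.71 ± 0.22, adjusted p = 0.0291) and NCL (-0.53 ± 0.17, adjusted p = 0.0299) were not called without any 1 of the 4 libraries of the line (adjusted p of 0.0612 to 0.201 and 0.0652 to 0.174). DKC1 (0.0539 and 0.0559), POLR1B (0.0722 and 0.0675) and POLR1C (0.0634 and 0.0533) were not called without hypoxia library A or B, and DDX21 not without B (0.0656). WDR12 (-0.60 ± 0.13, adjusted p = 0.00279) stayed under the threshold without each library in turn. The values with all 4 libraries were DKC1 -0.57 ± 0.14, POLR1B -0.54 ± 0.14, POLR1C -0.47 ± 0.12 and DDX21 -0.52 ± 0.13.

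In HIF1A-null, 17 genes fell and 2 rose, against 19.1% of all genes called lower and 18.9% called higher. The median was -0.29. Of the 17, 16 were among the 30 of shNT and the other was PES1 (-0.62 ± 0.21, adjusted p = 0.0276, and -0.93 without normoxia library B). Without normoxia library B, 21 fell and 1 rose with a median of -0.49 (17.0% of all genes lower, 16.4% higher), and without normoxia library A, 11 fell and 2 rose with a median of -0.13. Without hypoxia library B the median was -0.24 and fewer genes were called. Shares of all genes were not counted without normoxia library A or without hypoxia library B. NOP58 (-1.06 ± 0.14, adjusted p = 2.99e-05), UTP14A (-1.12 ± 0.14, adjusted p = 1.95e-05), UTP3 (-1.27 ± 0.16, adjusted p = 2.63e-05), UBTF (-1.07 ± 0.20, adjusted p = 0.000691) and NOP56 (-1.04 ± 0.22, adjusted p = 0.00186) each fell by more than 1 on the log2 scale. Without normoxia library B these 5 values ran from -1.16 to -1.32. RRS1 was at -1.67 ± 0.34, adjusted p = 0.00136 and NIP7 at -0.62 ± 0.12, adjusted p = 0.00106 (-2.06 and -0.76 without normoxia library B). GAR1 (-0.48 ± 0.13, adjusted p = 0.00944) was not called without normoxia library A (adjusted p = 0.0575) or hypoxia library B (adjusted p = 0.0650). None of the 5 abundant nucleolar proteins was called by edgeR or DESeq2, and none had an unadjusted p under 0.05 in edgeR, but without normoxia library B NCL was called lower (-0.57, adjusted p = 0.0156).

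TAF1D and FBL rose in HIF1A-null. TAF1D was at 43.7 and 57.9 CPM in normoxia and 123 and 187 CPM in hypoxia (1.61 ± 0.22, adjusted p = 4.73e-05), and the log2 fold change was 1.83 without normoxia library B. FBL was at 506 and 401 CPM in normoxia and 614 and 568 CPM in hypoxia (0.38 ± 0.14, adjusted p = 0.0376), and its rise was not called without normoxia library B (0.22, adjusted p = 0.285), hypoxia library A (0.32, adjusted p = 0.151) or hypoxia library B (0.44, adjusted p = 0.0685), nor under library totals (0.11, adjusted p = 0.491).

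The 4 hypoxia comparisons share no library. GAR1, LTV1, NIP7, NOP16, NOP56, NOP58, PNO1, POLR1B, RRP1B, RRS1, UBTF, UTP14A, UTP3 and WDR43, 14 genes in all, were called lower in each of the 4 lines, as were 5.05% of all genes tested. Some of these calls were lost when 1 library was left out, as given above: NOP56 and POLR1B in shCDK8, POLR1B in shTIP60 and GAR1 in HIF1A-null. A further 10 were called lower in shNT, shTIP60 and shCDK8 but not in HIF1A-null: DDX21, DKC1, EBNA1BP2, NCL, NOP2, POLR1C, RRP9, UTP20, UTP6 and WDR12 (3.40% of all genes had this pattern). In shCDK8 the calls of DDX21, DKC1, NCL and POLR1C were also lost when 1 library was left out. Of these 10, only DDX21, DKC1, RRP9, UTP20 and UTP6 had a response called different from that in shNT, and EBNA1BP2, NCL and NOP2 were called lower in HIF1A-null too without its normoxia library B. 8 were called lower in no line, against 66.6% of all genes (FBL, NOP10, NOP14, NPM1, NPM3, RRP12, TAF1D and TSR1). With library pairs taken within a series, the median hypoxia change was -0.86 (A) and -0.92 (B) in shNT, -0.75 and -0.64 in shTIP60, -0.57 and -0.50 in shCDK8, and -0.37 and -0.19 in HIF1A-null. The number of genes below 0 was 38 and 36, 38 and 35, 38 and 35, and 34 and 25 of 40 in the same order. The RNA of MYC, a known regulator of many of these genes, was measured too, and a link to their changes was not tested. It rose in hypoxia in shNT (0.63 ± 0.15, adjusted p = 0.00329), shTIP60 (0.56 ± 0.15, adjusted p = 0.00678), shCDK8 (0.80 ± 0.15, adjusted p = 0.0012) and HIF1A-null (0.53 ± 0.15, adjusted p = 0.0111), the opposite direction to most of the 40 genes. Only in shCDK8 was its rise called without each library in turn. Without 1 library the highest adjusted p was 0.0535 in shNT (without normoxia library A), 0.0808 in shTIP60 (without normoxia library A) and 0.157 in HIF1A-null (without hypoxia library A), where the rise was also not called without normoxia library B (0.48, adjusted p = 0.0574). Under library totals the rise of MYC was 0.42 in shNT and 0.63 in shCDK8 and was still called, but was not called in shTIP60 (0.35, adjusted p = 0.0613) or HIF1A-null (0.25, adjusted p = 0.169).

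Whether the fall differed between lines was tested as the difference of the hypoxia responses, in comparisons that share the 4 shNT libraries. For HIF1A-null against shNT, 9 of the 40 genes had a higher response (a smaller fall or a larger rise) and 0 a lower one, against 7.53% of all genes called higher and 8.92% called lower. The median difference of the 40 was 0.49, against -0.016 over all tested genes, and 19 of 40 had an unadjusted p under 0.05. That last share was not counted over all genes. The 9 genes were LTV1, NIP7, DDX21, UTP20, TAF1D, NOLC1, RRP9, UTP6 and DKC1. Without normoxia library B of HIF1A-null, 7 were called with a median of 0.33 (4.56% of all genes higher, 5.77% lower). Without normoxia library A of HIF1A-null the median was 0.71, and without normoxia library A of shNT it was 0.39. The number called moved with the library left out. Within series A the median difference was 0.39 with 31 of 40 genes above 0, and within series B it was 0.60 with 35 of 40 above 0. DESeq2 called 13 higher, and the share of all genes it called was not counted. The count depended on the fit: 21 were higher with the library series as a covariate (13.7% of all genes higher, 13.3% lower), 17 without the filter (6.71% and 8.10%), and 4 with only the groups compared (2.83% and 4.05%).

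LTV1 (chr6:144164475-144184949 on GRCh37) was at 58.3 and 49.2 CPM in normoxia and 18.2 and 18.2 CPM in hypoxia in shTIP60, 68 and 76.2 CPM in normoxia and 31.9 and 27.8 CPM in hypoxia in shCDK8, and 49.4 and 48.8 CPM in normoxia and 35.2 and 31.1 CPM in hypoxia in HIF1A-null. It fell in HIF1A-null too, but its hypoxia level there was above that of shNT and shTIP60 in both libraries. The difference of responses was 1.21 ± 0.19, adjusted p = 0.000592. NIP7 (chr16:69371899-69377009) was at 112 and 109 CPM in normoxia and 39.1 and 42 CPM in hypoxia in shTIP60, 122 and 118 CPM in normoxia and 53.5 and 50.0 CPM in hypoxia in shCDK8, and 105 and 85.2 CPM in normoxia and 63.3 and 60.7 CPM in hypoxia in HIF1A-null. In hypoxia its libraries were lowest in shNT, then shTIP60, then shCDK8, and highest in HIF1A-null, with no overlap between these lines. The difference was 1.12 ± 0.17, adjusted p = 0.000643. NIP7 shares 18.4% of its exonic bases with COG8 on the opposite strand, and LTV1 shares 34.7% with other annotated genes on its own strand.

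DDX21 (chr10:70715891-70744824) was at 251 and 243 CPM in normoxia and 166 and 178 CPM in hypoxia in shTIP60, 313 and 304 CPM in normoxia and 218 and 212 CPM in hypoxia in shCDK8, and 245 and 214 CPM in normoxia and 264 and 287 CPM in hypoxia in HIF1A-null. In HIF1A-null both hypoxia libraries were above both normoxia libraries, though that rise was not called (0.26 ± 0.12, adjusted p = 0.111), and the difference of responses was 1.07 ± 0.18, adjusted p = 0.000995. UTP20 (chr12:101673883-101780396, 62 exons) was at 43.4 and 41.6 CPM in normoxia and 21.7 and 21.2 CPM in hypoxia in shTIP60, 55.7 and 47.9 CPM in normoxia and 36 and 34.5 CPM in hypoxia in shCDK8, and 37.1 and 29 CPM in normoxia and 33.3 and 36.4 CPM in hypoxia in HIF1A-null. Its hypoxia level in HIF1A-null overlapped the normoxia level of that line, which was itself lower than in shNT (-0.54 ± 0.14, adjusted p = 0.0155, not called without HIF1A-null normoxia library B, at -0.38 and adjusted p = 0.149, or without shNT normoxia library A, at -0.44 and adjusted p = 0.158). The difference of responses was 1.08 ± 0.20, adjusted p = 0.00191. These 4 differences stayed called without each of the 8 libraries in turn and under the other settings tried, except that UTP20 was not called against a 1.5-fold bound (adjusted p = 0.0612). Without HIF1A-null normoxia library B they were 1.20, 0.98, 0.97 and 0.92 in the same order.

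The calls of the other 5 differences depended on the libraries or groups in the fit. NOLC1, at 446 and 325 CPM in normoxia and 392 and 364 CPM in hypoxia in HIF1A-null, had a difference of 0.92 ± 0.22, adjusted p = 0.0117, and was not called without shNT normoxia library A (adjusted p = 0.0543), while without HIF1A-null normoxia library B it was 0.71 (adjusted p = 0.048). DKC1, at 129 and 95.2 CPM in normoxia and 108 and 109 CPM in hypoxia in HIF1A-null, had 0.78 ± 0.20, adjusted p = 0.0151, and was not called without HIF1A-null normoxia library B (0.58, adjusted p = 0.0592) or shNT normoxia library A (0.73, adjusted p = 0.0652). UTP6, a processome protein, had 0.78 ± 0.17, adjusted p = 0.00652, and stayed called without each library (0.79 without HIF1A-null normoxia library B, adjusted p = 0.019). RRP9 had 0.86 ± 0.27, adjusted p = 0.0381, and was not called without HIF1A-null normoxia library B (0.60, adjusted p = 0.140), HIF1A-null hypoxia library A (0.65, adjusted p = 0.124), shNT normoxia library A (0.75, adjusted p = 0.147) or shNT hypoxia library B (0.69, adjusted p = 0.129). TAF1D had 0.95 ± 0.31, adjusted p = 0.044, and was not called without any 1 of shNT normoxia libraries A and B, HIF1A-null normoxia library A, shNT hypoxia library A or HIF1A-null hypoxia library B (0.62 to 1.02, adjusted p of 0.0866 to 0.202), nor under library totals (adjusted p = 0.0769) or with a mean of 5 CPM as the filter (adjusted p = 0.0714). Without HIF1A-null normoxia library B it was 1.17 (adjusted p = 0.0341). In a fit of only the groups compared none of the 5 was called, with adjusted p of 0.0516 for UTP6, 0.053 for NOLC1, 0.0715 for DKC1, 0.104 for TAF1D and 0.124 for RRP9.

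**Figure D3:**
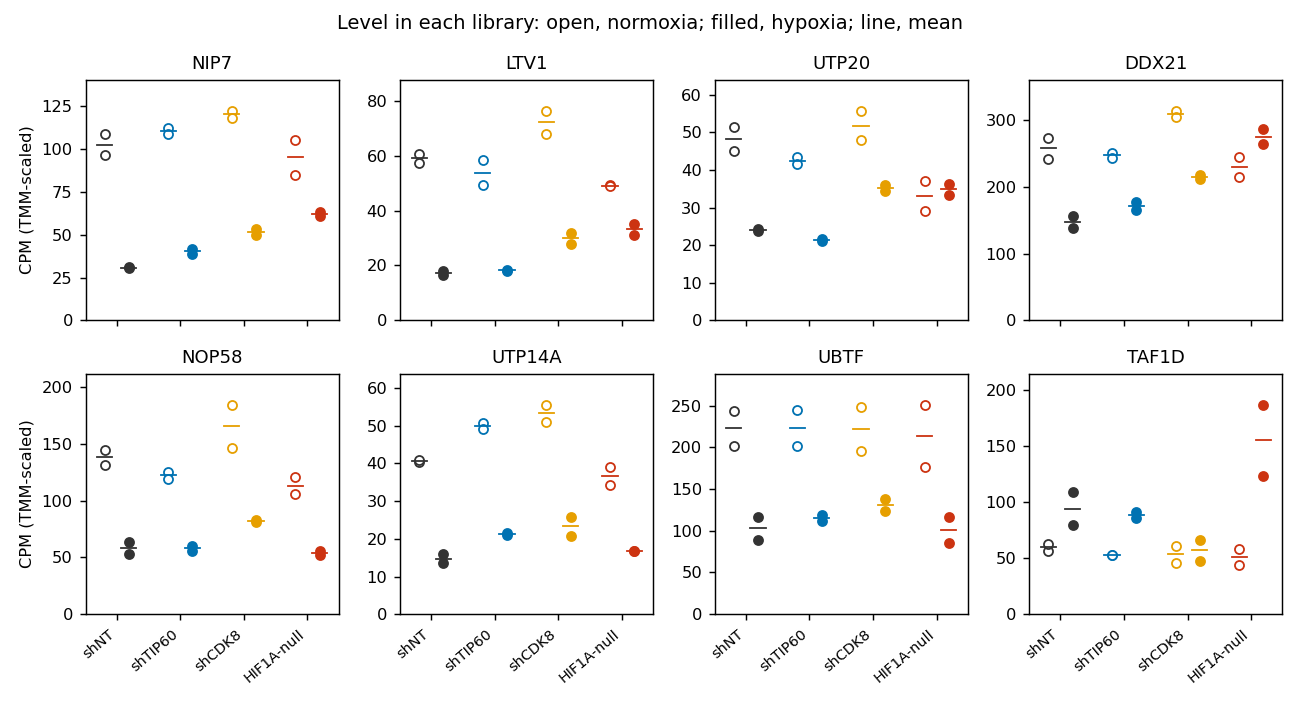
Each panel is 1 gene, the vertical axis is its level in CPM from 0, open points are the 2 normoxia libraries and filled points the 2 hypoxia libraries of each line, and the bar is their mean. NOP58, UTP14A and UBTF fell in all 4 lines, UTP20 in HIF1A-null was at 37.1 and 29.0 CPM in normoxia and 33.3 and 36.4 CPM in hypoxia, and TAF1D reached 187 CPM in HIF1A-null hypoxia.

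In 31 of the 40 genes the response was not called different between HIF1A-null and shNT. NOP58 was at 125 and 119 CPM in normoxia and 55.5 and 60.3 CPM in hypoxia in shTIP60, 146 and 184 CPM in normoxia and 81.6 and 83.4 CPM in hypoxia in shCDK8, and 121 and 106 CPM in normoxia and 52.5 and 56 CPM in hypoxia in HIF1A-null, with a difference of responses of 0.18 ± 0.19, adjusted p = 0.562. UTP14A was at 50.8 and 49.1 CPM in normoxia and 20.9 and 21.5 CPM in hypoxia in shTIP60, 55.5 and 51.1 CPM in normoxia and 25.9 and 20.8 CPM in hypoxia in shCDK8, and 39 and 34.2 CPM in normoxia and 16.8 and 16.9 CPM in hypoxia in HIF1A-null (0.34 ± 0.20, adjusted p = 0.258). UBTF was at 244 and 202 CPM in normoxia and 119 and 112 CPM in hypoxia in shTIP60, 249 and 195 CPM in normoxia and 139 and 123 CPM in hypoxia in shCDK8, and 251 and 176 CPM in normoxia and 117 and 85.8 CPM in hypoxia in HIF1A-null (0.04 ± 0.28, adjusted p = 0.948). In NOP58, UTP14A and UBTF every hypoxia library of a line was under every normoxia library of that line. NOP56 was at 452 and 388 CPM in normoxia and 204 and 213 CPM in hypoxia in shTIP60, 547 and 488 CPM in normoxia and 344 and 289.8 CPM in hypoxia in shCDK8, and 522 and 337 CPM in normoxia and 253 and 164 CPM in hypoxia in HIF1A-null (0.01 ± 0.31, adjusted p = 0.986). POLR1B was at 64.9 and 68.9 CPM in normoxia and 44.6 and 46.9 CPM in hypoxia in shTIP60, 80.4 and 77.4 CPM in normoxia and 53.6 and 55.1 CPM in hypoxia in shCDK8, and 67.7 and 51.2 CPM in normoxia and 46 and 38.1 CPM in hypoxia in HIF1A-null (0.18 ± 0.20, adjusted p = 0.59). An adjusted p above the threshold does not show that the responses were equal, and the SE of these differences was 0.19 to 0.31 on the log2 scale. Without HIF1A-null normoxia library B the differences were 0.09 for NOP58, 0.25 for UTP14A, -0.19 for UBTF, -0.27 for NOP56 and -0.0084 for POLR1B, and none was called.

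GAR1 was at 33.7 and 35 CPM in normoxia and 14.7 and 17.2 CPM in hypoxia in shTIP60, 43.9 and 44.2 CPM in normoxia and 25 and 29 CPM in hypoxia in shCDK8, and 30.6 and 27 CPM in normoxia and 21.3 and 20.1 CPM in hypoxia in HIF1A-null (0.43 ± 0.19, adjusted p = 0.125). RRS1 was at 106 and 82.4 CPM in normoxia and 23 and 22.4 CPM in hypoxia in shTIP60, 127 and 95.1 CPM in normoxia and 47.7 and 36.7 CPM in hypoxia in shCDK8, and 103 and 54.4 CPM in normoxia and 34.9 and 14.5 CPM in hypoxia in HIF1A-null (0.82 ± 0.48, adjusted p = 0.264), with HIF1A-null hypoxia libraries more than 2-fold apart. Without HIF1A-null normoxia library B the differences were 0.34 for GAR1 and 0.43 for RRS1. DKC1 was at 153 and 135 CPM in normoxia and 86.5 and 97.6 CPM in hypoxia in shTIP60 and 172 and 156 CPM in normoxia and 109 and 111 CPM in hypoxia in shCDK8. NOLC1 was at 616 and 567 CPM in normoxia and 321 and 345 CPM in hypoxia in shTIP60 and 390.4 and 301 CPM in normoxia and 258 and 258 CPM in hypoxia in shCDK8, where its fall was not called (-0.42 ± 0.16, adjusted p = 0.063). Among roles, the median difference was 0.61 for both the nucleolar proteins (2 of 5 called) and the small subunit factors (4 of 12), 0.52 for the H/ACA proteins (1 of 4) and the large subunit factors (1 of 11), 0.10 for the C/D proteins (0 of 3) and 0.039 for the RNA polymerase I genes (1 of 5). Without that library the medians were 0.36 for the nucleolar proteins, 0.35 for the small subunit factors, 0.33 for the H/ACA proteins, 0.38 for the large subunit factors, -0.054 for the C/D proteins and -0.027 for the RNA polymerase I genes. Differences between roles were not tested.

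**Figure D4:**
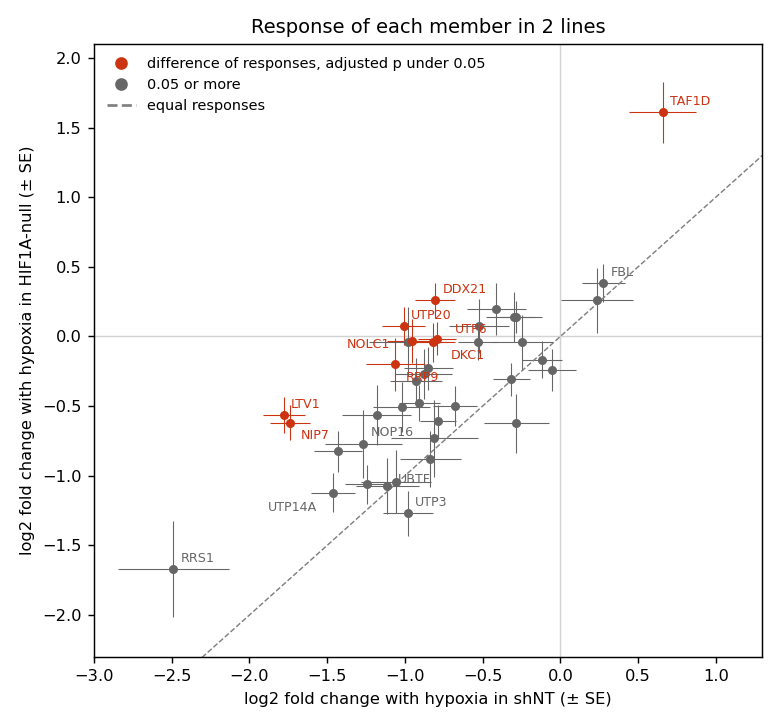
Each point is 1 of the 40 genes, with its log2 fold change in hypoxia (± SE) in shNT on the horizontal axis and in HIF1A-null on the vertical axis, and the dashed line marks equal responses. The 9 genes whose difference of responses had an adjusted p under 0.05 are red and lie above the line, and UBTF, UTP3 and UTP14A are among the 31 grey ones.

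No gene of the 40 had a called difference of responses between an shRNA line and shNT with all libraries. For shTIP60, edgeR called 0 of the 40 differences (values from -0.33 to 0.43, median 0.13), 0 had an unadjusted p under 0.05, and DESeq2 called 0. Over all genes 0.00644% were called higher and 0.0258% lower in that comparison. For shCDK8, edgeR called 0 (values from -0.69 to 1.10, median 0.27), 6 had an unadjusted p under 0.05, and DESeq2 called 0, against 0.00644% of all genes called higher and 0.0322% called lower. In shCDK8, LTV1 (0.51 ± 0.19), NIP7 (0.52 ± 0.17) and RRS1 (1.10 ± 0.48) had adjusted p = 0.32, 0.275 and 0.424. With the library series as a covariate or without the filter, 2 of the 40 were called for shCDK8. The share of all genes called in these 2 fits was not counted, nor was the share with an unadjusted p under 0.05. Within series A and B the differences were above 0 in 28 and 30 of the 40 genes for shTIP60 (medians of 0.067 and 0.19) and in 32 and 30 for shCDK8 (medians of 0.24 and 0.28).

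The last comparisons set each line beside shNT at the same oxygen level, and share the shNT libraries. In normoxia few genes differed. In shTIP60, 1 of 40 was lower and 0 higher (8.13% of all genes were called lower and 10.3% higher), WDR12 at -0.38 ± 0.13, adjusted p = 0.0452. WDR12 was at 57.1 and 56 CPM in shTIP60 and 75 and 72.3 in shNT, and was not called without any 1 of these 4 libraries (adjusted p of 0.125 to 0.196). In shCDK8, 2 were higher and 0 lower (5.80% of all genes higher, 7.27% lower). UTP6 was at 69 and 79.5 CPM in shCDK8 and 48.7 and 42.2 in shNT (0.71 ± 0.12, adjusted p = 0.000778). PNO1 was at 47.7 and 52.5 CPM in shCDK8 and 34.9 and 35.2 in shNT (0.52 ± 0.15, adjusted p = 0.0286), and was not called without shNT normoxia library A or B or shCDK8 normoxia library B (adjusted p of 0.136 to 0.163). The median of the 40 in shCDK8 was 0.26, with 36 of 40 above 0. In HIF1A-null, 3 were lower and 0 higher (5.86% of all genes each way): UTP20 (above), POLR1A (-0.74 ± 0.20, adjusted p = 0.0199) and DKC1 (-0.52 ± 0.14, adjusted p = 0.0228). POLR1A was at 70.5 and 52.2 CPM in HIF1A-null and 108 and 97.4 in shNT. Without normoxia library B of HIF1A-null none of the 3 was called (POLR1A -0.54, DKC1 -0.32, adjusted p = 0.157 and 0.195). Without shNT normoxia library A none was called, and without library B 1 was.

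In hypoxia more genes differed in shCDK8 and HIF1A-null. In shCDK8, 21 of 40 were higher and 1, TAF1D, was lower (-0.72 ± 0.22, adjusted p = 0.0211), against 14.4% of all genes called higher and 13.4% called lower. The median was 0.51. UTP6 was at 54.2 and 54.8 CPM in shCDK8 hypoxia and 27 and 25.3 in shNT hypoxia (1.06 ± 0.12, adjusted p = 1.60e-05), with NIP7 at 0.75 ± 0.13, adjusted p = 0.000407, LTV1 at 0.80 ± 0.13, adjusted p = 0.000439 and BOP1 at 1.24 ± 0.25, adjusted p = 0.00189. Each of these 4 stayed called without each library in turn. The median was 0.40 without shNT hypoxia library B and 0.45 without shCDK8 hypoxia library A, and fewer genes were called in both fits. The share of all genes called in them was not counted. By role, 9 of 12 small subunit factors and 7 of 11 large subunit factors were higher.

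In HIF1A-null hypoxia, 17 of 40 were higher and 2 lower, against 20.3% of all genes called higher and 20.8% called lower, with a median of 0.28. NIP7 (1.01 ± 0.13, adjusted p = 1.24e-05), DDX21 (0.90 ± 0.13, adjusted p = 4.03e-05), LTV1 (0.95 ± 0.13, adjusted p = 4.56e-05) and UTP6 (0.86 ± 0.12, adjusted p = 5.03e-05) had the smallest adjusted p, and all 4 stayed called without each library in turn. Lower were POLR1A (-0.78 ± 0.20, adjusted p = 0.00522) and UTP3 (-0.45 ± 0.16, adjusted p = 0.0346). Without shNT hypoxia library B the median was 0.30 and fewer genes were called, and the share of all genes called was not counted. Scaled by library totals, 13 were higher and 4 lower (14.9% and 25.8% of all genes), with the median gene of the table at -0.12. Of the 5 nucleolar proteins 4 were higher, and 0 of the 3 C/D proteins was called.
In shTIP60 hypoxia, 3 of 40 were higher and 1 lower (11.3% of all genes higher, 10.5% lower). UTP14A (0.52 ± 0.14, adjusted p = 0.0143), UTP6 (0.45 ± 0.12, adjusted p = 0.0159) and NIP7 (0.40 ± 0.13, adjusted p = 0.0315) were higher and FBL (-0.51 ± 0.14, adjusted p = 0.0133) lower. None of the 4 stayed called without each library in turn: no gene was called without shTIP60 hypoxia library A or B, 2 were called without shNT hypoxia library A, and 1 without shNT hypoxia library B.

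**Figure D5:**
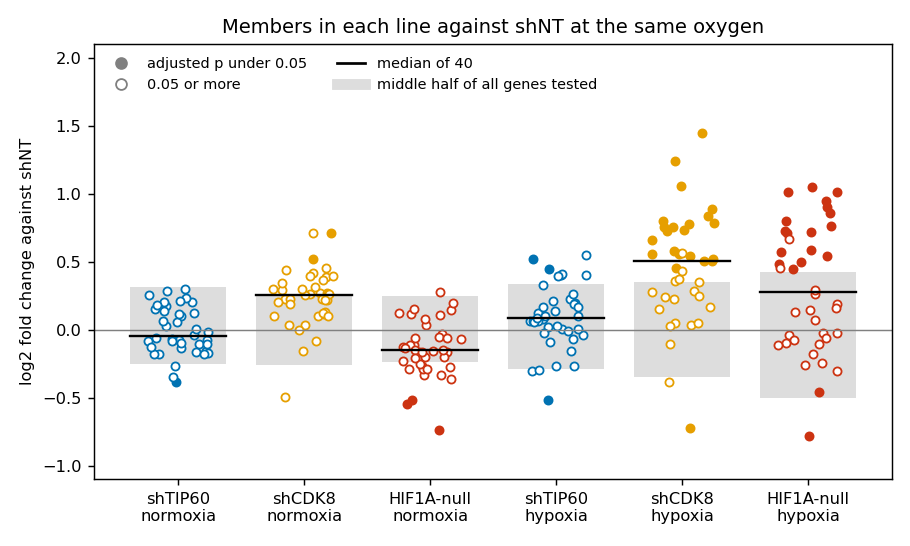
Each point is 1 of the 40 genes, the vertical axis is its log2 fold change against shNT at the same oxygen level, and columns are lines and oxygen levels. Filled points had an adjusted p under 0.05, the black bar is the median of the 40 (0.26 in shCDK8 normoxia, 0.51 in shCDK8 hypoxia, 0.28 in HIF1A-null hypoxia), and the grey box is the middle 50% of all genes tested.

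The rest of the pathway was read from 143 other genes in 5 lists, all of which were tested. These lists too were chosen with earlier results of these data known, so they are not independent support for the 40 genes. In shNT hypoxia 90 fell and 5 rose (20.0% of all genes were lower and 20.7% higher), with a median of -0.56. By list, 6 of 10 other RNA polymerase I genes fell, among them the initiation factor RRN3 (-0.62 ± 0.11, adjusted p = 0.000506) and the subunit CD3EAP (-1.22 ± 0.25, adjusted p = 0.0010). Of 46 other small subunit factors 35 fell, with RRP36 at -1.68 ± 0.18, adjusted p = 4.03e-06 and UTP15 at -1.72 ± 0.19, adjusted p = 5.19e-06. Of 51 other large subunit factors 25 fell, with URB2 at -2.35 ± 0.21, adjusted p = 6.28e-07 and PAK1IP1 at -1.64 ± 0.16, adjusted p = 1.61e-06. Of 24 genes of ribosomal RNA trimming (exosome and RNase MRP and P proteins among them) 17 fell, with POP5 at -1.20 ± 0.14, adjusted p = 6.90e-06 and EXOSC2 at -1.16 ± 0.14, adjusted p = 8.27e-06. Of 12 genes of snoRNP assembly 7 fell, with NUFIP1 at -1.26 ± 0.16, adjusted p = 1.53e-05 and SHQ1 at -1.06 ± 0.13, adjusted p = 1.64e-05. The 5 that rose were NOB1 (0.84 ± 0.15, adjusted p = 0.000449), the nuclease of the last small subunit cut, POLR1D (0.56 ± 0.12, adjusted p = 0.00174), a subunit shared with RNA polymerase III, EXOSC5 (0.48 ± 0.15, adjusted p = 0.0174), GLTSCR2 (0.42 ± 0.13, adjusted p = 0.0211) and PIH1D1 (0.37 ± 0.13, adjusted p = 0.0321). In shTIP60 86 fell and 4 rose (19.8% and 19.4% of all genes), with a median of -0.49. In shCDK8 70 fell and 0 rose (11.0% and 13.8%), with a median of -0.47. In HIF1A-null 54 fell and 5 rose (19.1% and 18.9%), with a median of -0.27, and without its normoxia library B 63 fell and 3 rose, with a median of -0.40. Tested against shNT, the response of HIF1A-null was higher in 26 and lower in 3 of the 143 (7.53% and 8.92% of all genes), with a median of 0.31, and without that library it was higher in 14 and lower in 3, with a median of 0.19. In hypoxia, 44 were higher and 2 lower in shCDK8 than in shNT (14.4% and 13.4% of all genes). In HIF1A-null 40 of the 143 were higher and 10 lower in hypoxia than in shNT, against 20.3% and 20.8% of all genes.

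Levels differed widely between the members. Per kilobase of the canonical transcript in GENCODE 44 (lifted to GRCh37), the shNT normoxia level ran from 5.34 CPM per kb for UTP20 through a median of 50.0 for NIP7 to 483 for NPM1, over the 39 genes with such a transcript (BOP1 had none). The abundant end held NPM1, FBL (439.6), NCL (288), NOP56 (233) and NPM3 (203), and the scarce end UTP20, POLR1A (8.21), WDR12 (9.13) and POLR1B (9.57). Members called lower in all 4 lines lay throughout this range, from POLR1B to NOP56. Only UTP3 and RRS1 have a single exon. Both fell in every line, and the 271 single-exon protein-coding genes tested had median changes in hypoxia of -0.14 in shNT, -0.18 in shTIP60, -0.075 in shCDK8 and -0.44 in HIF1A-null.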

How the data were processed

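Gene-level counts of 16 poly(A) RNA libraries sequenced on the Ion Torrent platform were used as deposited by the authors, with no normalization. The submitters' processing notes name the aligner GSNAP, the counter HTSeq (0.5.4p5) and DESeq (1.14.0) run in R (3.0.3), with hg19 or GRCh37 as the build. For the counting, the gene annotation is not given in the sources used here, nor is the strand setting. Library totals ran from 26620086 to 39401494 counts, and their number sets the precision of low genes only, since the lowest count of a ribosome biogenesis factor was 360.

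Counts were scaled with TMM factors (0.862 to 0.965 in hypoxia, 1.01 to 1.12 in normoxia), filtered by group (minimum count 10, minimum total 15) and fitted in edgeR 4.0.16 (R 4.3.3, limma 3.58.1) with robust quasi-likelihood over all 8 groups (2 libraries each, 8 residual degrees of freedom). The 13 contrasts were 4 of hypoxia with normoxia, 6 of a line with shNT, and 3 differences of responses. The script was tested on simulated data. Alternatives were DESeq2 1.42.0, other scalings and filters, a bound of 1.5-fold, only the groups compared, each library left out, and the library series as a covariate. The columns name groups and library numbers, so A and B follow these numbers and not the labels' replicate numbers.

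The members and lists were chosen with earlier results of these data known. Named with full statistics were, per role, up to 2 called members of smallest adjusted p in each hypoxia comparison, up to 4 in each other comparison, and any called against the main direction, with up to 2 genes per pathway list. Other genes given with statistics were chosen after their values were seen.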

Additional observations from a re-analysis of the deposited data

Results flagged for a closer look

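The hypoxia responses of 9 genes differed between HIF1A-null and shNT in the test of that difference itself (edgeR's quasi-likelihood test, Benjamini-Hochberg adjustment over all genes), and each is listed for that reason. On the log2 scale, as the response of HIF1A-null minus that of shNT, the differences were 1.21 for LTV1, 1.12 for NIP7, 1.08 for UTP20, 1.07 for DDX21, 0.95 for TAF1D, 0.92 for NOLC1, 0.86 for RRP9, 0.78 for UTP6 and 0.78 for DKC1. TAF1D rose in both lines, and the others fell in shNT. The HIF1A-null normoxia libraries differed from each other by a median of 0.42 over the 40 genes, and DKC1 and RRP9 were not called without library B. Without it the other differences were 1.20 for LTV1, 0.98 for NIP7, 0.92 for UTP20, 0.97 for DDX21, 1.17 for TAF1D, 0.71 for NOLC1 and 0.79 for UTP6. The calls of TAF1D, NOLC1 and UTP6 were lost in other fits, as given above. Those of LTV1, NIP7, DDX21 and UTP20 were kept in the other settings tried, except UTP20 against the 1.5-fold bound.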

How the results depend on the processing

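Of 97 results for named genes, none changed direction. All 97 stayed on their side of the threshold with DESeq2, with RLE size factors and with the library series as a covariate, the last chosen after seeing the data. Calls were lost in 48 with the 1.5-fold bound, 13 with only the groups compared, 7 with library totals, 2 with a mean of 5 CPM, 2 without the filter, and in 73 cases where 1 library was left out, against 355 where the call stood.

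Members called, in either direction, moved by more than 1.5 times as follows. With the 1.5-fold bound, 15 were called in hypoxia in shNT, 10 in shTIP60, 5 in shCDK8 and 6 in HIF1A-null. Against shNT it left 0 in each line in normoxia, and in hypoxia 0 in shTIP60, 2 in shCDK8 and 5 in HIF1A-null, with 3 response differences in HIF1A-null. With only the groups compared, 11 were called in hypoxia in HIF1A-null, 5 in shTIP60 and 0 in HIF1A-null against shNT in normoxia, 12 in HIF1A-null against shNT in hypoxia, and 4 response differences in HIF1A-null. With library totals, 0 in shTIP60 and 5 in HIF1A-null were called against shNT in normoxia and 7 in shTIP60 in hypoxia. Without the filter, 0 in shTIP60 and 6 in shCDK8 were called in normoxia, with 2 response differences in shCDK8 and 17 in HIF1A-null. A mean of 5 CPM gave 0 in shTIP60 in normoxia and 7 in hypoxia. DESeq2 gave 2 in shTIP60 and 6 in shCDK8 in normoxia and 7 in shTIP60 in hypoxia. The series covariate gave 2, 10 and 5 in shTIP60, shCDK8 and HIF1A-null in normoxia, 10 in shTIP60 in hypoxia, and 2 and 21 response differences in shCDK8 and HIF1A-null. Shares of all genes in these fits were counted only where given above. The cause was not tested.

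Leaving out 1 library, the hypoxia counts ran from 26 to 30 in shNT, 24 to 27 in shTIP60, 9 to 22 in shCDK8 and 12 to 22 in HIF1A-null. Against shNT they ran from 0 to 0, 1 to 4 and 0 to 4 in normoxia and from 0 to 2, 8 to 21 and 12 to 16 in hypoxia, in shTIP60, shCDK8 and HIF1A-null. Response differences ran from 0 to 0 in shTIP60 and shCDK8 and from 5 to 19 in HIF1A-null. No paired analysis was possible because the columns do not carry the replicate numbers of the labels, and the series covariate above uses the 2 runs of column numbers, which no label ties to a shared culture or day. With 2 libraries per group, single calls near the threshold rest on 1 library, and depth did not limit these genes. Of the fits with 1 library left out, shares over all genes were given only without HIF1A-null normoxia library B.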
